A study of Mus musculus with 2 samples.

Results

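The genes described here build the cornified envelope, the keratin filaments and the desmosomes of stratified epithelia, and they were measured in mouse bone marrow stromal cells. They were chosen by symbol: late cornified envelope (Lce), small proline-rich (Sprr), S100a, desmoglein and desmocollin (Dsg, Dsc), plakophilin (Pkp) and keratin (Krt) genes, plus Dsp, Ppl, Evpl, Ivl, Lor, Flg, Crct1 and Trp63. Of 35275 genes in the deposited table, 125 carried such a symbol, and 39 of these had at least 4 read counts summed over both libraries. The other 86 stayed below that minimum, and 71 of them were at 0 in both libraries. Just inside the minimum stood Lce3a (3 control and 1 mutant counts) and S100a2 (2 and 2), and just outside it stood Krt14, Krt16 and Ivl (0 and 3 each) and Lce3d (2 and 1). Flg was not analysed here.

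RNA came from mesenchymal stem/progenitor cells (MSPC), stromal cells of the marrow that can form bone, cartilage and fat, isolated from C57BL/6 mice. One library was Ptpn11+/+ (control) and the other Ptpn11E76K/+ (mutant), and mice of both genotypes also carried Nestin-Cre, a recombinase under control of the nestin gene. Ptpn11 encodes the phosphatase SHP2, and E76K is an activating change in it. Cells lacking CD45, Ter-119 and CD31 and bearing CD140 and Sca-1 were sorted and used fresh. The sources used here do not give the age of the mice or say whether animals were pooled. The design text mentions 2 replicates, but the table holds 1 column per genotype, so no test between genotypes was possible and every ratio below compares 2 libraries. In such bulk libraries, more cells expressing a gene and more RNA per cell cannot be told apart.

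In the epidermis, keratin filaments run through the cell and are anchored at desmosomes, junctions in which desmosomal cadherins bind across the gap and plakoglobin, plakophilins and desmoplakin link them to the filaments. As a keratinocyte matures, transglutaminases cross-link envoplakin, periplakin, involucrin, loricrin, SPRR and LCE proteins under the membrane into a tough shell, the cornified envelope. Many of these envelope genes lie side by side with the S100a genes in the epidermal differentiation complex. S100 proteins are small calcium-binding proteins, and several are abundant in mesenchymal cells. Trp63 encodes p63, the master regulator of stratified epithelia.

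Totals were 22328659 counts for the control and 18010963 for the mutant, and 1 count was worth 0.0432 and 0.0575 CPM (counts scaled to library size with TMM factors). Each ratio has a 95% exact interval for counting error only. A gene with at least 20 counts over both libraries was called higher or lower in the mutant when that whole interval lay beyond 2-fold. A library at 0 counts allows up to 3 counts, or 0.130 CPM (control) and 0.173 CPM (mutant). Over the whole table, 6.98% of 13142 genes were called higher and 8.29% lower. Of these calls 45.7% were higher, and 35.6% with totals that omit the 100 genes with the most reads, which moved the median log2 ratio of all genes from 0.01 to -0.12.

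Sprr2g, Crct1, Ppl and Pkp2 were higher in the mutant library, as were genes with no or almost no control reads such as Lce1g and Sprr2h, while Trp63 was lower. Of the 39 genes, 28 had at least 20 counts, and 13 of these were called higher, 1 lower and 14 were not called. The median log2 ratio of the 28 was 1.16, against 0.01 for all genes. Of the 28, 9 would not have reached 20 counts had the mutant library stood at the control level, so being measured already set their direction, and these 9 were all called higher. Of the other 19, 4 were called higher (Sprr2g, Crct1, Ppl and Pkp2), 1 lower (Trp63) and 14 were not called; the median log2 ratio was 0.51. Among the 15 measured envelope, plakin and keratin genes, 8 of the 11 called higher were of the first kind, and of the other 7 genes 3 were called higher (Sprr2g, Crct1 and Ppl) and 4 were not called. At the minimum of 4 counts, 16 of the 39 had intervals above 2-fold and 1 below, where 6.24% of 15938 genes were called higher and 7.10% lower. The genes added there, Lce1l, Lor and Krt75, were at 0 in the control. They passed this minimum only through the mutant library, which set their direction. The plot of levels in both libraries shows that the 39 genes spanned the range from single reads to some of the most abundant transcripts of the cells.

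**Figure D1:**
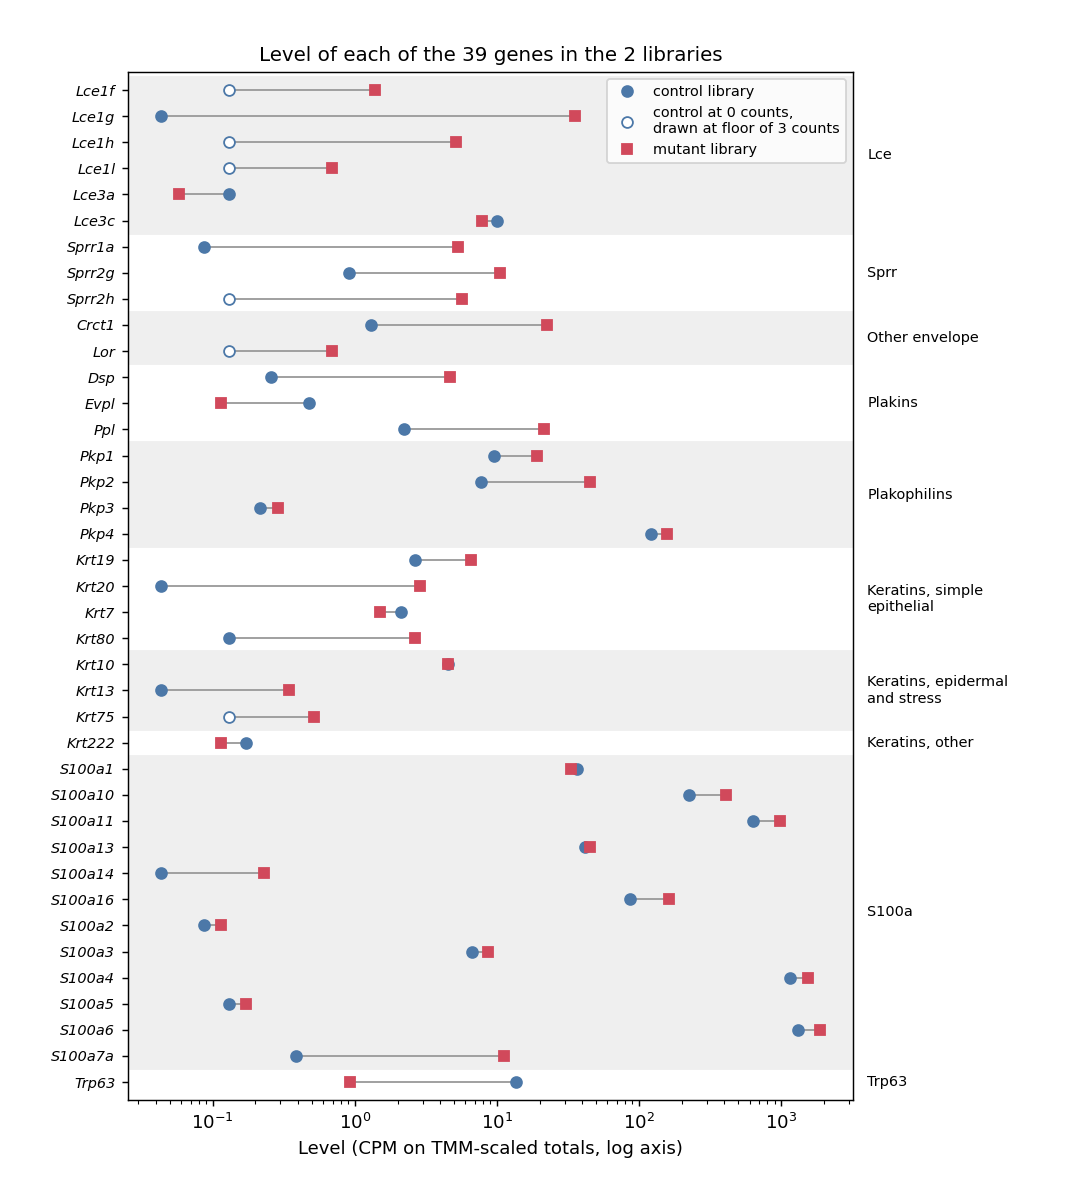
Level of each of the 39 genes in CPM (x axis, logarithmic) in the control library (circles) and the mutant library (squares), by family; open circles are controls at 0 counts, drawn at the floor of 3 counts. Lce1g moves from 0.0432 to 35.6 CPM and Trp63 from 13.6 to 0.920 CPM, while S100a4 (1164 and 1553 CPM) and S100a6 (1316 and 1876 CPM) lie at the right edge.

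LCE proteins are small envelope proteins made late in keratinocyte maturation. Lce1g had 1 control and 619 mutant counts, or 0.0432 and 35.6 CPM, a ratio of 823 (147 to 32573). Lce1h had 0 and 89 counts, at least 39.5-fold higher against the floor of 3 counts (exact bound 31.4). Lce1f had 0 and 24 counts, at least 10.6-fold higher (exact lower bound 8.01). The 3 genes are direct neighbours in the RefSeq gene order. The genes on either side of them, Lce1e and Lce1i, were at 0 in both libraries. Lce1l, further along the cluster, had 0 and 12 counts, at least 5.32-fold higher at the floor (exact lower bound 3.70), which is under the minimum for a call.

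The LCE3 genes are another branch of the family. Lce3c had 234 control and 137 mutant counts, 1.28-fold lower (1.04 to 1.60), and was not called. Lce3c was the Lce gene with the most counts in the control library, while Lce1g reached the minimum for a call only through the mutant library. Lce3a had 3 and 1 counts, with an interval from 118-fold lower to 5.52-fold higher. The other 14 Lce symbols in the table had at most 3 counts, and 12 were at 0. Summed over the 20 Lce symbols, counts were 240 in the control and 884 in the mutant, 4.90-fold higher (4.24 to 5.67). Lce3c alone held 234 of the 240 control counts, and Lce1g alone 619 of the 884 mutant counts. The summed ratio therefore rests on different genes in each library. Lce1h and Lce1f, like Lce1g, reached 20 counts only through the mutant library, which set their direction.

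Lce genes resemble each other, and the treatment of reads that match several genes is not stated in those sources. Of the 50-base stretches in the longest transcript of Lce1g, 18.4% also occurred in transcripts of other genes, chiefly Lce1j, Lce1e, Lce1c and Lce1f. The share was 19.9% for Lce1h and 15.0% for Lce1f. It was 35.7% for Lce3c, whose partners were the other LCE3 genes. Lce1j, Lce1e and Lce1c, the closest partners of Lce1g, were themselves at 0 counts.

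SPRR proteins are short, proline-rich cross-bridging proteins of the envelope. Sprr2h had 0 and 99 counts, at least 43.9-fold higher against the floor of 3 counts (exact bound 35.0). Sprr1a had 2 and 92 counts, or 0.0865 and 5.29 CPM, a ratio of 61.2 (16.5 to 513). Sprr2g, the direct neighbour of Sprr2h, had 21 and 183 counts, 11.6-fold higher (7.36 to 19.2), and RefSeq lists it as a transcribed pseudogene. It was the Sprr gene with the most counts in the control. The longest transcripts of these 3 genes shared no stretch of 50 bases with other genes. The other 13 Sprr symbols had at most 2 counts, and 10 of them were at 0, so Sprr2g, Sprr2h and Sprr1a held nearly all of the family's 25 and 376 counts.

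Of the remaining envelope genes, Crct1, a cysteine-rich gene beside the LCE3 genes, had 30 control and 390 mutant counts, 17.3-fold higher (11.9 to 26.0). Lor, which encodes loricrin, the main protein of the mature envelope, had 0 and 12 counts, at least 5.32-fold higher at the floor (exact lower bound 3.70). Ivl, which encodes involucrin, an early envelope scaffold, had 0 and 3 counts and fell outside the minimum. Per kilobase of the longest transcript, the level in the mutant library was 38.5 CPM for Lce1g, 31.2 for Crct1, 16.2 for Sprr2g, 13.9 for Lce3c, 7.57 for Sprr2h, 7.25 for Lce1h and 6.56 for Sprr1a. In the control library Lce3c had the highest such level of these genes, 17.8 CPM. By this measure Lce1g ranked 1806 of 13074 genes in the mutant library and 12994 in the control, and Crct1 ranked 2209 and 10256. Lor reached only 0.388 CPM per kilobase in the mutant library.

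The promoters of 4 genes of the cluster are shown as examples, picked by name. Sprr1a, Sprr2h and Lce1g reached 20 counts only through the mutant library, and Lor was under 20 counts and not called. The windows run from 250 bases before to 50 bases after the start, from RefSeq on GRCm38.p6, and are written 5′ to 3′ on the gene's own strand. Capitals mark matches to TGANTCA, the letters bound by AP-1 factors, searched on both strands. Sprr1a lies at chr3:92485832-92486131 (minus strand), Sprr2h at chr3:92385435-92385734 (plus strand), Lor at chr3:92083093-92083392 (minus strand) and Lce1g at chr3:92752289-92752588 (minus strand).
Sprr1a: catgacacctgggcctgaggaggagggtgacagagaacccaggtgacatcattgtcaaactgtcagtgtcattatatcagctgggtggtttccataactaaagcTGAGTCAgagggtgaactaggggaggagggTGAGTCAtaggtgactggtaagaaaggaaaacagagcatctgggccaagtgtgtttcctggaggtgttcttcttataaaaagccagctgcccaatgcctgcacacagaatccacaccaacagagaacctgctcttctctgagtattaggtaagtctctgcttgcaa
Sprr2h: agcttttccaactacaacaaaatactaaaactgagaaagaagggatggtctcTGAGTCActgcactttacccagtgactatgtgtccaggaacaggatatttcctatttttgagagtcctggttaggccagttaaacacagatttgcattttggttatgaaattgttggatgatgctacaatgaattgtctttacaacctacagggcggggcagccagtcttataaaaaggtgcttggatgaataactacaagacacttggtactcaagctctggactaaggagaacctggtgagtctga
Lor: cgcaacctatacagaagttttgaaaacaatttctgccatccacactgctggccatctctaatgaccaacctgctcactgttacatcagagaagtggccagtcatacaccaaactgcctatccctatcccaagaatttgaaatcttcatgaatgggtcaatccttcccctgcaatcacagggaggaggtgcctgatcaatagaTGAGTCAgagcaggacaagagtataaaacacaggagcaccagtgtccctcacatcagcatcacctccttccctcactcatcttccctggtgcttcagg
Lce1g: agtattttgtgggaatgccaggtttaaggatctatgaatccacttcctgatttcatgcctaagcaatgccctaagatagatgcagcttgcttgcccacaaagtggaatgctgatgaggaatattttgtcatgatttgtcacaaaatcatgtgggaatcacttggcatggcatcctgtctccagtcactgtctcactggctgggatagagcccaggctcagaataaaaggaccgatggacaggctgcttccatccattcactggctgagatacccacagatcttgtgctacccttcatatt

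Sprr1a held 2 matches, beginning 146 and 116 bases before the start, Sprr2h held 1 at 198 bases and Lor 1 at 48 bases. All 4 of these read TGAGTCA. The Lce1g window held none. Of the 39 genes, 24 had a promoter in the RefSeq table, with 30 windows, and 7 windows of 6 genes held the motif (23.3%), against 7.81% of all 32851 windows. The other genes with a match were Krt13, S100a11 and S100a16. Of the 6 genes only Sprr1a and Sprr2h were called higher, so the motif also stood before genes that were not called. AACCNGTT, the letters of grainyhead-like factors, occurred in 1 of the 30 windows, that of S100a3 (3.33%, against 2.09% of all windows), and no window held both motifs. A match is only a stretch of letters and does not show that a factor was bound.

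The S100a, Sprr and Lce genes share a cluster, and most of its genes between S100a6 and S100a11 had no reads in either library. In RefSeq order the cluster runs from S100a1 to S100a10, with 65 protein-coding or described genes that are also in the table. The 9 genes from S100a1 to S100a6 held 61355 control and 64001 mutant counts, and none of the 6 measured ones was called. The 54 genes from S100a7a to Tchhl1, a stretch drawn after the values were seen, held 304 and 1906 counts. Of these 54, 33 were at 0 in both libraries and 10 were measured. Of these 10, 7 reached 20 counts only through the mutant library, which set their direction, and of the other 3 Sprr2g and Crct1 were called higher and Lce3c was not. S100a11 and S100a10, at the far end, held 19957 and 24160 counts and neither was called. The plot of counts along the gene order shows a few genes with reads, some side by side, among genes at 0. Only names and order are taken from RefSeq here, since its build is not the mm9 build in the submitters' processing notes.

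**Figure D2:**
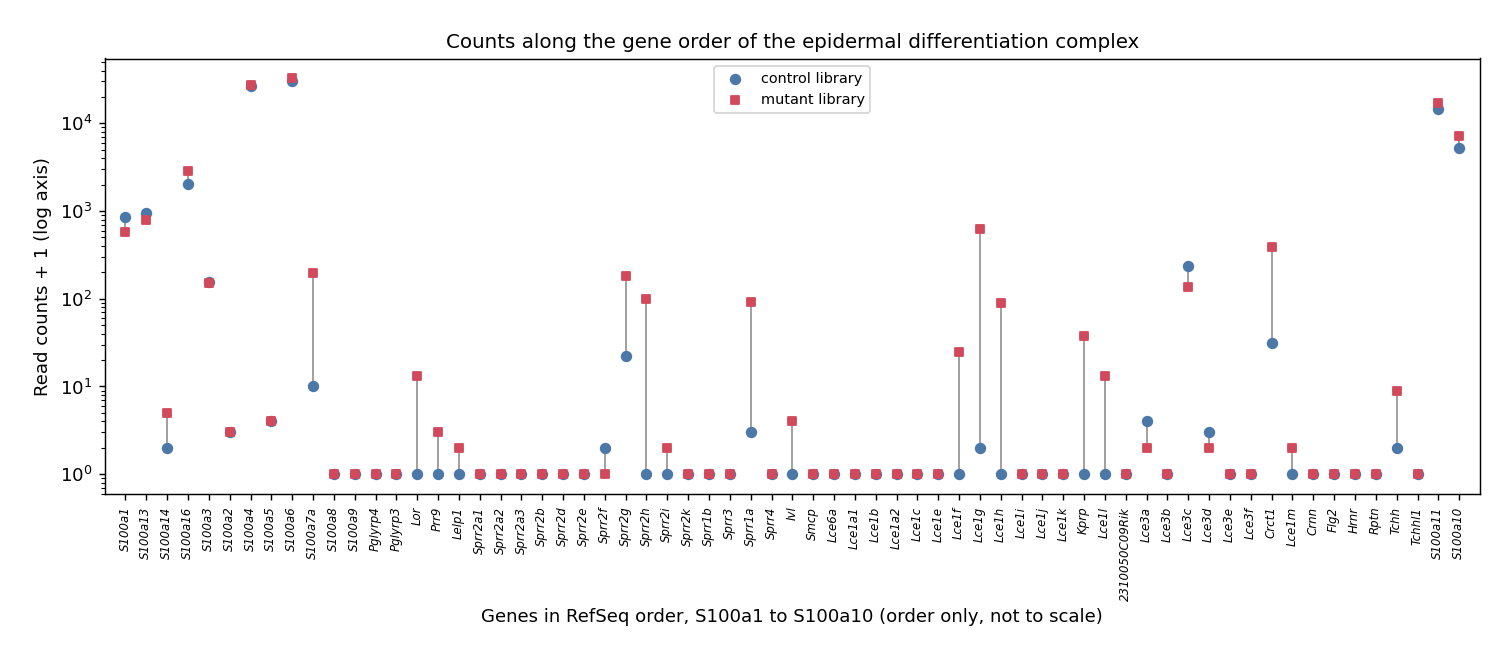
Read counts plus 1 (y axis, logarithmic) of the 65 genes of the epidermal differentiation complex in RefSeq order (x axis, order only) in the control (circles) and mutant (squares) libraries. S100a genes at both ends have similar counts in both libraries, and in between Lce1g (1 and 619), Crct1 (30 and 390) and S100a7a (9 and 194) are the genes with the most mutant counts.

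Plakins tie keratin filaments to the membrane. Ppl, which encodes periplakin, had 51 control and 370 mutant counts, or 2.21 and 21.3 CPM, 9.65-fold higher (7.19 to 13.2). Dsp, which encodes desmoplakin, the core linker of the desmosome, had 6 and 81 counts, 18.0-fold higher (7.90 to 50.4). Evpl, which encodes envoplakin, the usual partner of periplakin, had 11 and 2 counts, with an interval from 38.4-fold lower to 1.11-fold higher. Of the called plakins, Ppl also reached 20 counts at the control level. Dsp reached it only through the mutant library, which set its direction, and Evpl was too low for a call. In the mutant library Ppl reached 3.42 and Dsp 0.486 CPM per kilobase, which ranked 8729 and 11682 of 13074 genes. Dsp overlaps the gene model Gm10129 on the opposite strand, and without a stated strand setting reads from the overlap cannot be told apart. Of the 50-base stretches in the longest transcript of Dsp, 4.72% also occurred in that model.

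Plakophilins are armadillo-repeat proteins that join desmosomal cadherins to desmoplakin. Pkp2, the most widely expressed of the desmosomal ones, had 179 and 781 counts, or 7.74 and 44.9 CPM, 5.80-fold higher in the mutant library (4.93 to 6.87). Pkp1 had 222 and 334 counts, 2.0-fold higher (1.68 to 2.38), and was not called. Pkp4, a relative that sits mostly at adherens junctions, had 2817 and 2730 counts, 1.29-fold higher (1.22 to 1.36), and was not called either. Pkp3 had 5 and 5 counts. The interval of Pkp2 overlapped neither that of Pkp1 nor that of Pkp4. Per kilobase, Pkp4 led in both libraries (26.4 CPM in the control and 34.0 in the mutant), and Pkp2 moved from 2.64 to 15.3.

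The desmosomal cadherins themselves were not detected. All 9 genes (Dsc1, Dsc2, Dsc3, Dsg1a, Dsg1b, Dsg1c, Dsg2, Dsg3 and Dsg4) were at 0 in both libraries, so that each could have reached at most 0.130 CPM (control) and 0.173 CPM (mutant). Among their partners from a list of 15 adherens junction and desmosome genes, 13 were measured, 1 was called higher, 1 lower and 11 were not called; the median log2 ratio was 0.11. Jup, which encodes plakoglobin, had 1123 and 1155 counts, 1.37-fold higher (1.26 to 1.49). Perp, a desmosomal membrane protein gene, had 32 and 51 counts, 2.12-fold higher (1.34 to 3.41), and was not called. Nectin2, an adhesion receptor gene, was 3.22-fold higher (2.74 to 3.79), and Cdh11, the mesenchymal cadherin gene, 2.70-fold lower (2.62 to 2.79). The epithelial cadherin gene Cdh1 had 0 and 1 counts.

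Keratins form filaments from pairs of a type I and a type II chain. Of 54 keratin symbols, 8 were among the 39 genes and 5 were measured. Krt20, a type I keratin of gut and urinary epithelium, had 1 and 50 counts, a ratio of 66.5 (11.4 to 2679). Krt80, a type II keratin, had 3 and 46 counts, 20.4-fold higher (6.56 to 103). Krt20 and Krt80 reached 20 counts only through the mutant library, which set their direction, and the other 3 measured keratins were not called. Krt19, a small type I keratin, had 61 and 115 counts, 2.51-fold higher (1.82 to 3.48), and was not called. Krt7, a type II keratin of simple epithelia, had 49 and 26 counts, 1.42-fold lower with an interval that reached 1.16-fold higher. Krt10, a type I keratin of the upper epidermis, had 105 and 79 counts, at 4.54 CPM in both libraries. Krt75, a hair follicle keratin, had 0 and 9 counts, at least 3.99-fold higher at the floor (exact lower bound 2.63), and Krt13 and Krt222 had 7 and 6 counts in all.

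Several keratins that define epithelia were at or near 0. Krt8 and Krt18, the pair of simple epithelia, had 0 counts in both libraries, although 29.7% of the 50-base stretches of Krt8 also occur in other gene models, and 0.720% of those of Krt18. Krt5 and Krt14, the pair of basal keratinocytes, had 0 and 1 and 0 and 3 counts. Krt1, the usual partner of Krt10, was at 0. Apart from Krt75, grouped here with the epidermal and stress keratins, none of the 26 hair and root sheath keratins had more than 1 count over both libraries. The 5 measured keratins stayed low, with 1.5 to 6.61 CPM in the mutant library. Krt80 overlaps Gm35853, Krt10 overlaps Gm11940 and Krt7 overlaps Gm671 on the opposite strand. Of 12 other intermediate filament genes, 6 were under 20 counts, 1 was called higher and 5 were not called. Vim, which encodes vimentin, the main filament of mesenchymal cells, was at 6613 and 6352 CPM, and Nes (nestin) had 5192 and 10785 counts, 2.76-fold higher (2.67 to 2.86).

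**Figure D3:**
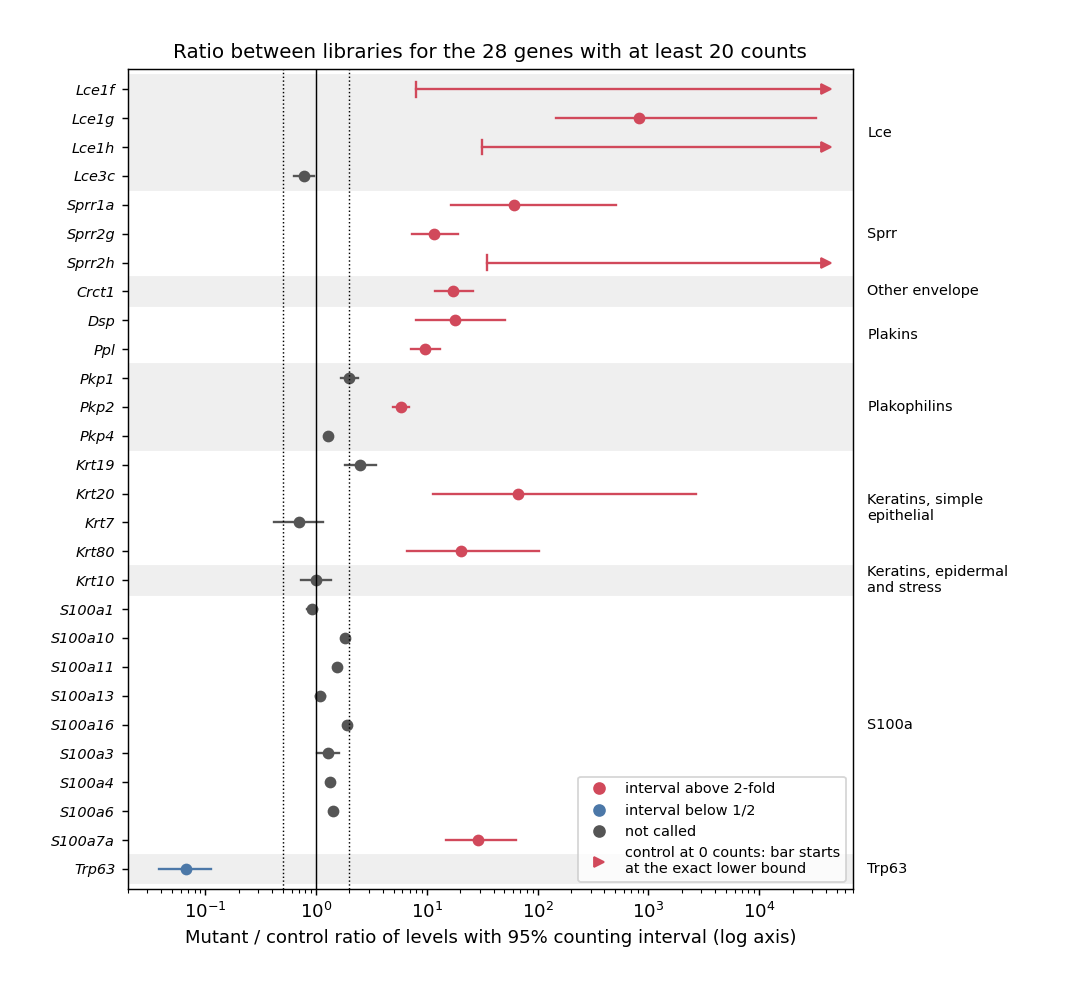
Ratio of mutant to control level (x axis, logarithmic) for the 28 genes with at least 20 counts, by family, with 95% counting intervals; dotted lines mark 2-fold in each direction, and arrows mark genes at 0 counts in the control, whose bar starts at the exact lower bound. The 13 genes called higher include Sprr2g, Crct1, Ppl and Pkp2, and Trp63 is the gene called lower.

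S100a genes included the most abundant of the 39, and 8 of their 9 measured members were not called. S100a4, a calcium-binding protein gene typical of fibroblasts, had 26930 and 27002 counts, 1.33-fold higher in the mutant library (1.31 to 1.36). S100a6 had 30448 and 32622 counts, 1.43-fold higher (1.40 to 1.45), and S100a11 14723 and 17023 counts, 1.54-fold higher (1.5 to 1.57). By CPM per kilobase, S100a4 ranked 5 of 13074 genes in both libraries, S100a6 ranked 12 and 14, and S100a11 ranked 21 and 17. S100a10, whose protein binds annexin A2 at the membrane, had 5234 and 7137 counts, 1.81-fold higher (1.75 to 1.88). S100a16 had 2007 and 2849 counts, 1.89-fold higher (1.78 to 2.0). These 5 genes were not called, since their intervals do not lie beyond 2-fold.

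The lower S100a genes included the exception. S100a7a, the mouse relative of human psoriasin genes, had 9 control and 194 mutant counts, or 0.389 and 11.2 CPM, 28.7-fold higher (14.8 to 63.7). S100a7a reached 20 counts only through the mutant library, which set its direction. S100a1 had 849 and 581 counts, 1.10-fold lower with an interval from 1.22-fold lower to 1.01-fold higher. S100a13 had 959 and 787 counts, 1.09-fold higher, so that neither differed beyond counting error. S100a3 had 156 and 151 counts, 1.29-fold higher (1.02 to 1.62). S100a2, S100a5 and S100a14 had 4 to 6 counts in all. S100a8 and S100a9, the pair of neutrophil genes, were at 0 in both libraries. Of 11 measured partners of S100 proteins, annexin genes among them, none was called, with a median log2 ratio of -0.06. Of the 50-base stretches of S100a4, 56.3% also occur in another gene model, Gm42674, and 41.1% of those of S100a11 occur in others such as Gm12854.

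Trp63 had 315 counts in the control library and 16 in the mutant, or 13.6 and 0.920 CPM, 14.8-fold lower (8.97 to 26.2). It was the only one of the 28 measured genes called lower, opposite in direction to the 13 called higher. Of these 13, 9 reached 20 counts only through the mutant library, which set their direction. Sprr2g, Crct1, Ppl and Pkp2 were the others. Gene counts do not separate the TA and ΔN forms of p63. Of 20 further transcription factors of the epidermis, 6 were measured, 2 were called higher, 0 lower and 4 were not called; the median log2 ratio was 0.28. Klf5 was 4.37-fold higher (3.70 to 5.19; 184 and 605 counts) and Gata3 3.82-fold higher (2.71 to 5.46; 46 and 132 counts). Klf4, a factor of barrier formation, had 1897 and 1584 counts, 1.11-fold higher (1.04 to 1.19), and Grhl1, a grainyhead-like factor, had 47 and 47. Grhl2, Ovol2, Elf3, Elf5 and Tfap2c were at 0 in both libraries.

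Genes that process the envelope were mostly too low to measure. Of 24 cornification enzymes and lipid barrier genes, 5 were measured, 1 was called higher, 1 lower and 3 were not called; the median log2 ratio was 0.38. The protease gene Klk10 had 10 and 36 counts, 4.79-fold higher (2.33 to 10.8), but was not called once trends with transcript length and GC were removed (3.98-fold, 1.93 to 8.99). Elovl4, which extends very long fatty acids, had 27 and 1 counts, 20.3-fold lower (3.35 to 831). Cdsn, which encodes corneodesmosin, had 1201 and 941 counts, 1.04-fold higher (0.956 to 1.14). The transglutaminase genes Tgm1, Tgm3 and Tgm5 had 5, 2 and 11 counts over both libraries. Of 11 other genes of the epidermal differentiation complex 8 were at 0, and Kprp, a keratinocyte proline-rich protein gene, had 0 and 37 counts, at least 16.4-fold higher at the floor. Klk10 and Kprp likewise reached 20 counts only through the mutant library. Elovl4 reached 20 counts only through the control library, which set its direction.

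Hemidesmosomes fix keratins to the basement membrane. Of 9 such genes 8 were measured, 3 were called higher, 0 lower and 5 were not called; the median log2 ratio was 0.37. Among them, Lama3, a laminin chain gene, was 4.88-fold higher (2.72 to 9.30) and Itga6 4.75-fold (4.26 to 5.31). Lamb3, another laminin chain gene, had 927 and 476 counts, 1.46-fold lower (1.31 to 1.64). Itgb4, the integrin partner of Itga6 in hemidesmosomes, had 18 and 8 counts. Plec, the plakin of this junction, had 18833 and 23689 counts, 1.67-fold higher (1.64 to 1.71), and was called higher only after the same trends were removed (2.30-fold, 2.26 to 2.35). Of 12 serpin B genes, many of them expressed in epithelia, 7 were measured, 2 were called higher and 1 lower. Serpinb2 had 17 and 1839 counts, Serpinb9b was 5.60-fold higher (4.92 to 6.39), and Serpinb1a 4.50-fold lower (3.73 to 5.48).

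**Figure D4:**
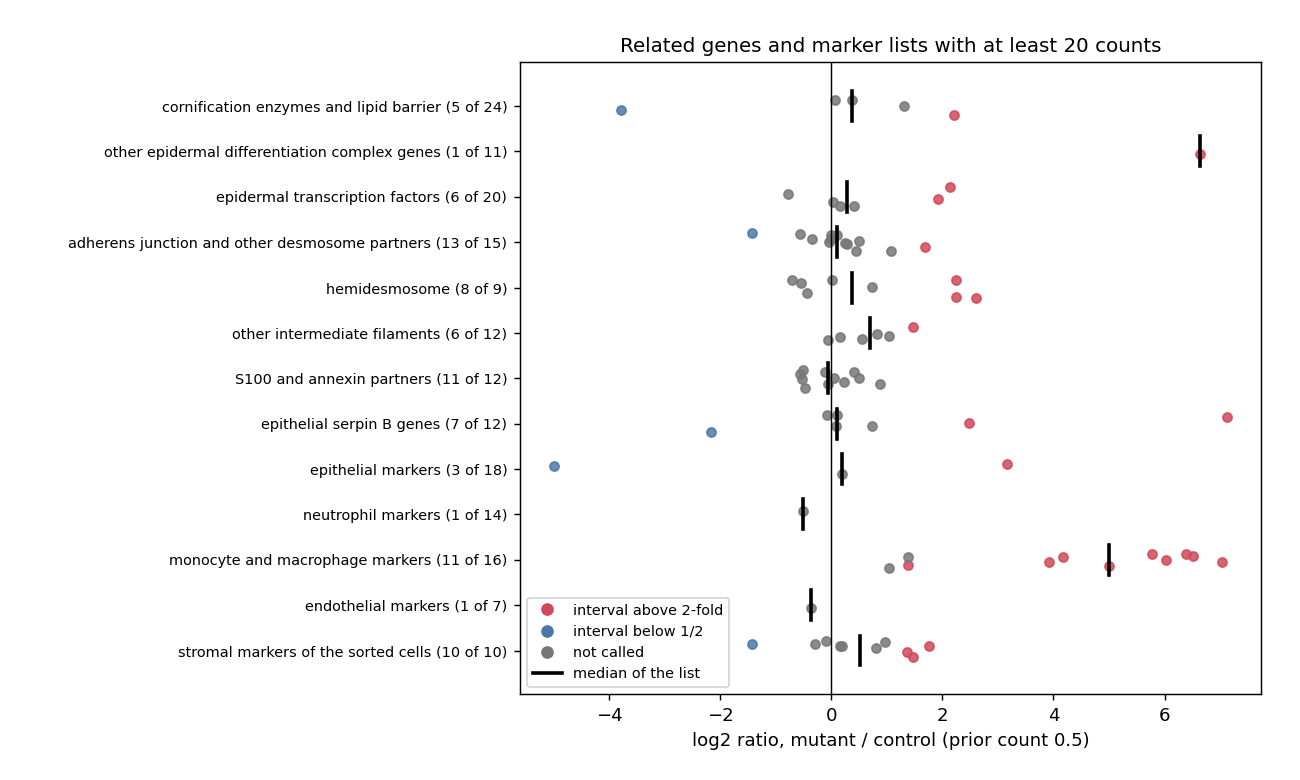
log2 ratio of mutant to control (x axis) for genes with at least 20 counts in each related or marker list (y axis, with measured and listed genes); each point is 1 gene and black bars are list medians. Most junction and partner genes lie near 0, and of the 11 measured monocyte and macrophage markers 8 passed the minimum only through the mutant library, where they are higher.

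Markers of other cell types were read in the same libraries. Of 18 epithelial markers 3 were measured, with 1 called higher (Spint2, 4 and 30 counts, measured only through the mutant library), 1 lower and Muc1 not called (41 and 35 counts). Cldn3 had 1 and 18 counts, under the minimum for a call, and Epcam, Esrp1, Grhl2, Cldn4 and Marveld2 were at 0 in both libraries. Of 16 markers of monocytes and macrophages, 11 reached 20 counts, with 9 called higher, 0 called lower and summed levels of 14.2 and 63.7 CPM. Of the 9, 8 reached 20 counts only through the mutant library, and of the 3 markers that reached it at the control level Cd14 was called higher, while Cd68 and Csf1r were not called. Cd14 was not among these calls with total counts (2.43-fold, 1.94 to 3.05). Ctss, C1qa, C1qb, C1qc, Itgb2, Laptm5, Tyrobp and Adgre1 were at 0 in the control library and Fcgr1 in both, while Lyz2 had 11 and 276 counts and Ptprc (CD45) 1 and 12. The part of these markers in the levels of the envelope, plakin and keratin genes was not tested.

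Neutrophil markers (14 genes) summed to 2.72 and 1.67 CPM, with 7 genes at 0 in both libraries. Endothelial markers (7 genes) summed to 0.865 and 1.61 CPM, and 5 erythroid markers to 0.519 and 0.230 CPM. The stromal genes of the sorted cells summed to 9843 and 16525 CPM, most of it from Col1a1 (5703 and 10004 CPM). All 10 were measured, with 3 called higher, 1 lower and 6 not called. Not all of the 3 kept their call with totals that omit the 100 genes with the most reads. The same held once trends with transcript length and GC were removed. Among the sort genes, Pdgfra was 1.15-fold higher (1.08 to 1.23), Pdgfrb 1.23-fold lower (1.18 to 1.28) and Ly6a, the gene of Sca-1, 2.67-fold lower (2.44 to 2.93). The sorted stroma's own genes were thus present in both libraries. Epcam, Cdh1, Krt5, Krt8, Krt14 and Krt18 had at most 3 counts over both. Other epithelial genes had more, among them Krt19 (61 and 115 counts), Krt7 (49 and 26) and Muc1 (41 and 35).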

How the data were processed

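The deposited table holds raw, unnormalized read counts for 35275 Ensembl genes in 2 columns, 1 per genotype. The submitters' processing notes name CASAVA, TopHat, edgeR and the build mm9 without versions. Its authors' read counter, annotation release, strand setting and pooling of animals were not given in the sources used here. Symbols were matched for 34490 genes from the supplied table. Totals were scaled with TMM factors (1.0358 control, 0.9654 mutant; edgeR 4.0.16, R 4.3.3). Ratios carry 95% Clopper-Pearson intervals of counting error (SciPy 1.17.1), tested on simulated data, and floors of 3 counts likewise cover counting error only. Median log2 ratios use a prior count of 0.5. Lengths, GC content and shared 50-base stretches come from GENCODE M21 transcripts. Genes with at least 20 counts, and lower ones at 0 in 1 library, could be named, with at most 4 called genes per related list. Other genes given with counts were named after their values were seen. Single values of 3 listed genes, and the summed level of the epithelial markers, are not reported here. The genes and lists were chosen with earlier results of these data known. Alternatives were other scalings (DESeq2 1.42.0 among them), count minimums, thresholds and families left out.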

Additional observations from a re-analysis of the deposited data

How the results depend on the processing

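Under 4 other library scalings and after removing the trends over transcript length and GC, 13 of the 28 measured genes were called higher and 1 lower in each case, and no gene changed its call. The median log2 ratio, 1.16, lay between 1.03 and 1.16 there. No called gene changed direction. The 13 calls stood beyond 4-fold and with a 99% interval, where 1.70% and 6.28% of all genes were called higher. Beyond 1.5-fold 18 were called higher, with Pkp1, Krt19, S100a10, S100a11 and S100a16 added, against 15.7% of all genes. With a minimum of 100 counts 6 of 20 genes were called higher, against 6.70% of all genes. Without the Lce and Sprr families 7 of 21 were called higher, against 13 of 28 with them. Most of the genes that either setting left out were called higher, so the share called higher depended on them. Without the S100a family the median was 3.50, with many of the remaining genes measured only through the mutant library. Over the 19 genes that reach 20 counts at the control level, S100a genes included, the median was 0.51. S100a13, not called, was at a log2 ratio of 0.13 and at -0.16 without the trends over length and GC content. Likewise S100a6 went from 0.51 to 0.24 and S100a16 from 0.92 to 0.62. Such shifts lie outside the counting intervals given for these genes. The call counts without the S100a family were chosen after seeing the data. No paired analysis was possible because each genotype has 1 library. Depth limits genes of few counts most: the interval of Krt20, with 51 counts, ran from 11.4 to 2679.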
